A study of Mus musculus with 2 samples.

Results

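Processed pseudogenes are intronless copies of messenger RNAs that were reverse transcribed and inserted back into the genome, and 148 of them carried at least 10 long reads in mouse adrenal gland. They were chosen as annotated genes of the types processed pseudogene or transcribed processed pseudogene with 10 or more reads summed over all transcript models of both libraries, so the summed reads describe the choice and are not a finding. The annotation holds 10237 such genes, of which 9693 had no read, 396 had 1 to 9 reads and 148 reached the minimum. Of the 148, 129 were among the 9941 processed pseudogenes (1.30%) and 19 among the 296 annotated as transcribed (6.42%). The tissue was adrenal gland of female B6CASTF1/J mice aged 25 days, which are hybrids of the C57BL/6J and CAST/EiJ strains, and the labels name no treatment. The series has 1 group of 2 libraries, called biological replicates 1 and 2. No condition could therefore be compared, and tests between the libraries compare those libraries only. The library descriptions of both name the same animal number, whereas the tissue descriptions name different ones.

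Processed pseudogenes arise when the reverse transcriptase of a LINE-1 element copies a mature messenger RNA, which leaves a copy without introns or the parent's promoter. Genes with abundant, short messages in the germ line, such as those for ribosomal proteins, glyceraldehyde-3-phosphate dehydrogenase and cyclophilin A, have left many copies. A young copy keeps nearly the sequence of its parent's coding region, so that a read of one can resemble a read of the other, and assigning it relies on splicing, on the untranslated ends and on the few bases that differ.

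The letters show how little separates the most-read copies from their parents. Each sequence below is a stretch of the pseudogene beside the same stretch of its parent's coding sequence, in transcript orientation, from the GENCODE M21 transcripts of mouse build mm10. Each stretch is the one of 60 coding bases with the most differences, except that Rps6-ps4 is shown over the stretch of Gm8172. Capitals mark the bases that differ within the stretch, and substitutions are named with the parent's base first and the position counted from the A of the parent's start codon. Gm15459 on the minus strand of chr5:5783413-5783472 is set beside Hspa8, the constitutive heat shock protein 70, and differs there by G114A.
Gm15459: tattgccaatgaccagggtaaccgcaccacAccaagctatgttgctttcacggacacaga
Hspa8: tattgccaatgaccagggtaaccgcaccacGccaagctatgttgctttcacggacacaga
The 4 other differences of Gm15459 over its 1941 bases were C414T, C549T, G1222A and C1440T. Copies of Gapdh, the glycolytic enzyme, are shown because nearly all reads of that family were placed on them. Gm12033 (minus strand, chr11:20335481-20335540), Gm5559 (plus strand, chr5:95862068-95862127) and Gm13394 (minus strand, chr2:28934235-28934294) each differ from Gapdh by 1 base, which is T504C, T385A and A346C in that order.
Gm12033: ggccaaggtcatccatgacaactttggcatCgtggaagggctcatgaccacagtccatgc
Gapdh: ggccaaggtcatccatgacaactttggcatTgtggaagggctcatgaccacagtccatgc
Gm5559: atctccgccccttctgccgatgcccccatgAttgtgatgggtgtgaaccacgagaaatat
Gapdh: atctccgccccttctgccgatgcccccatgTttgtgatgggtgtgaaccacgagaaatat
Gm13394: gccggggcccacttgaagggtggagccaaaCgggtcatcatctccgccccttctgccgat
Gapdh: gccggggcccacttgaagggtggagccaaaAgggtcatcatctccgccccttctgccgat
Copies of Rps6, a protein of the small ribosomal subunit, are shown because the closer copy had fewer reads. Gm8172 (minus strand, chrX:69605632-69605691) carries T575A and C594T in this stretch, whereas Rps6-ps4 (minus strand, chr2:75191209-75191268) has the parent's letters throughout.
Gm8172: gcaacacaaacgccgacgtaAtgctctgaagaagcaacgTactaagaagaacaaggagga
Rps6-ps4: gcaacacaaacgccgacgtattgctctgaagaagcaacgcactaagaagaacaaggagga
Rps6: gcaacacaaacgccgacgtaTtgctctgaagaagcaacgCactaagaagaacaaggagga
Gm10243 (plus strand, chr6:48523643-48523702) differs by G156A from Rpl35a, a protein of the large ribosomal subunit, and 4 other members have exactly its sequence. Rps19-ps6 (plus strand, chr12:110898463-110898522) and Rpl21-ps15 (minus strand, chrX:151215264-151215323) follow with their ribosomal protein parents.
Gm10243: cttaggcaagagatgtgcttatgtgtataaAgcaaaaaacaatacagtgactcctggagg
Rpl35a: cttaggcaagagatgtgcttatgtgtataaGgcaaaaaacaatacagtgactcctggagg
Rps19-ps6: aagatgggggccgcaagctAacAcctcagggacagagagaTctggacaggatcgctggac
Rps19: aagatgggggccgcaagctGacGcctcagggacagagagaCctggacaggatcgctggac
Rpl21-ps15: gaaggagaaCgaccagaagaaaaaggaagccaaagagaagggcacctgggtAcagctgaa
Rpl21: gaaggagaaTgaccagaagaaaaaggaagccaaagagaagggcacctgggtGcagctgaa
Rps4l (plus strand, chr6:148355185-148355244) is a contrast, with 165 differences from Rps4x over 814 aligned bases (79.7% identity), of which the 60 bases shown hold 20.
Rps4l: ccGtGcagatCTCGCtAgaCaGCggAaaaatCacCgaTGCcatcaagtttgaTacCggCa
Rps4x: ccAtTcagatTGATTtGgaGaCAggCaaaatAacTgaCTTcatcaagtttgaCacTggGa

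Replicate 1 held 426150 reads and replicate 2 held 770041, of which 397176 and 712032 lay on annotated mouse genes. Levels are given as CPM, the reads of a gene scaled to 1000000 reads on annotated genes, and a count of 0 allows up to 3 reads, or 7.55 and 4.21 CPM. Intervals are 95% Wilson intervals unless named otherwise and cover counting error only, since reads without molecular identifiers are not independent molecules. The summed level of 5 cortex markers was 73678 CPM in replicate 1 and 66564 CPM in replicate 2, that of 5 chromaffin cell markers was 10892 and 11936 CPM, and the 3 kidney markers had no read. The summed level of 4 liver markers was 229 CPM in replicate 1 and 1.40 CPM in replicate 2, from 91 reads and 1 read.

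The 148 pseudogenes together took the same share of both libraries. They held 6349 reads in replicate 1, which is 1.60% of reads on annotated genes (1.56 to 1.64). In replicate 2 they held 11195, which is 1.57% (1.54 to 1.60). The mean was 1.59% ± 0.019 (SD, n = 2). The reads were concentrated in few copies: the 10 most-read members held 44.7% and 42.1% of the members' reads in replicates 1 and 2. The median member had 43 reads over both libraries, 43 members had 100 or more, 91 had 30 or more and 42 had fewer than 20. In replicate 2 all 148 had a read and in replicate 1 all but Gm5537, a copy of the phosphoglycerate kinase gene Pgk1 with 12 reads in replicate 2, and Rpl35a-ps4, with 11. At the boundary of the rule, Gm4118 and Gm5940 had 10 reads each and were included, and 10 pseudogenes with 9 reads, such as Gm10247, Gm11223 and Gm49594, were not.

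Gm10123 and Gm15459 stood above the rest. Gm10123, a copy of Ppia, which encodes the prolyl isomerase cyclophilin A, had 504 reads in replicate 1 and 1079 in replicate 2, or 1269 and 1515 CPM. Gm15459, the copy of Hspa8, had 781 and 745 reads, or 1966 and 1046 CPM. Each of them was thus the first in 1 library, and their SDs over the libraries, 174 and 651 CPM, show that their order was not stable. Copies of Gapdh took 3 of the 15 highest places. Gm12671 averaged 639 ± 25.7 CPM, Gm12033 451 ± 56.2 CPM and Gm5559 366 ± 69.3 CPM (SD, n = 2 each). Copies of ribosomal protein genes filled 8 of the 15 places under those names or under Gm numbers, and Gm9843, a copy of Fau, which encodes a ubiquitin-like protein fused to ribosomal protein S30, was a further one at 336 ± 5.3 CPM. Rpl37rt averaged 522 ± 47.9 CPM, Gm10243 528 ± 4.2 CPM and Gm8172 464 ± 6.4 CPM, so the first and second of these differed by less than the spread of Rpl37rt. Rps19-ps6 averaged 456 ± 32.4 CPM, Rpl3-ps1 430 ± 17.3 CPM and Rps2-ps13 386 ± 27.4 CPM (SD, n = 2 each). Rpl21-ps15 followed at 318 ± 18.9 CPM and Gm12338, a copy of the cytochrome oxidase subunit gene Cox7c, stood at 335 ± 21.2 CPM. Gm14303 was the exception to this steadiness, with 25.2 CPM in replicate 1 and 558 CPM in replicate 2.

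**Figure D1:**
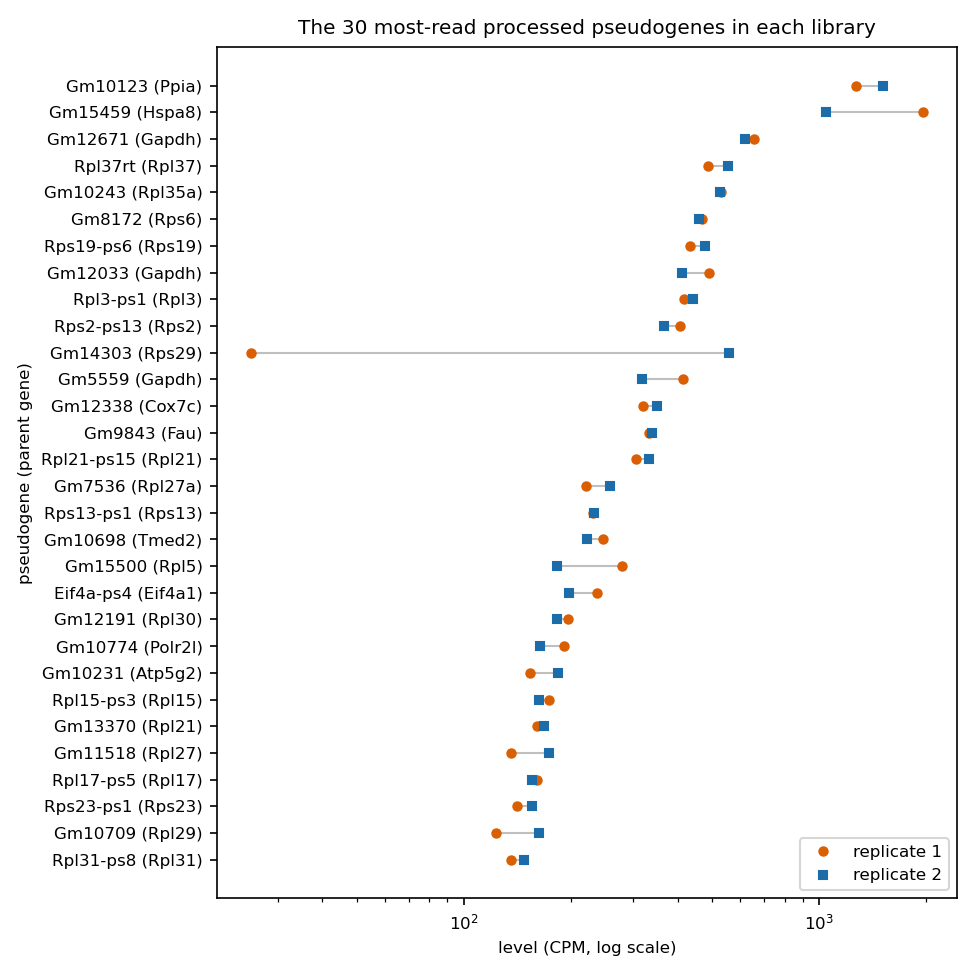
Levels of the 30 most-read processed pseudogenes in CPM (log axis), with replicate 1 as circles and replicate 2 as squares, and the parent gene in brackets. For most the symbols nearly touch, while Gm15459 is higher in replicate 1 (1966 against 1046 CPM) and Gm14303 in replicate 2 (558 against 25.2 CPM).

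Copies of ribosomal protein genes held the most reads among classes of parents that were grouped here by hand after the members were known. Of the 148, 74 were matched to 52 cytosolic ribosomal protein genes and held 8946 reads, 51.0% of the members' reads. The 3 copies of folding factors (Ppia, Hspa8 and the small heat shock protein gene Hspb1) held 3131 reads (17.8%). The 9 members matched to Gapdh, Pgk1 and Eno1b, grouped as glycolytic genes, held 1935 reads (11.0%). A further 9 copies, of respiratory chain and ATP synthase subunit genes, held 1093 (6.23%). The remaining 53 members, whose parents were put in no class, held 2439 reads (13.9%), and their most-read member was Gm10698, a copy of the vesicle trafficking gene Tmed2, with 98 and 158 reads. Members lay on 20 chromosomes, the autosomes and X, with 14 on X (9.46% of members, against 9.27% of annotated processed pseudogenes).

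Members named after their parent numbered 52, and for 50 of them the best match by sequence was the gene in the name. The others were Eif4a-ps4, matched to Eif4a1, and Hsp25-ps1, matched to Hspb1. Of the 52, 14 had 100 or more reads: Rps19-ps6, Rpl3-ps1, Rps2-ps13 and Rpl21-ps15 above, and Rps13-ps1, Eif4a-ps4, Rpl15-ps3, Rpl17-ps5, Rps23-ps1, Rpl31-ps8, Rpl19-ps11, Rpl28-ps1, Rpl27-ps3 and Mpc1-ps, which had between 258 and 126. Mpc1-ps is a copy of a mitochondrial pyruvate carrier gene, and Eif4a-ps4 of an RNA helicase of translation initiation. A further 17 had 30 to 99 reads, led by Rpl34-ps1 with 27 and 69, Rpl35a-ps2 with 21 and 65, and Gpx4-ps2, a copy of a lipid peroxide reductase gene, with 30 and 47. The last 21 had 11 to 29 reads, among them Rps16-ps2, Apoo-ps, Rps15-ps2, Impdh2-ps, Cbx3-ps6 and Rps4x-ps.

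Most members were nearly exact copies. Every pseudogene was matched to the coding transcripts of the annotation, and identity is the percentage of equal bases in the best match of any of its transcripts, which had to span at least 50% of that transcript. In 10 members most reads lay on another annotated transcript of the pseudogene than the one matched, and 9 of these had 99% identity or above on either transcript. A parent was found for 147 members, all but Magef1, a transcribed processed pseudogene with 5 and 6 reads, and these had 115 parents. The match held no differing base in 44 members, 1 to 5 in 80 and more than 5 in 23. The 44 exact copies held 6815 reads, 38.8% of the members' reads. The 125 members at 99% identity or above held 16472 reads, 93.9%. Within the matched stretch of an exact copy no letter can place a read on the copy or on the parent, and read sequences were not in the deposited tables, so that whether single reads came from the pseudogene or from its parent was not tested.

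Members, seldom-read and unread copies were ordered by identity. Median identity was 99.7% for the 147 matched members, 98.1% for 392 pseudogenes with 1 to 9 reads and 88.2% for 9198 with none. The unread copies of the members' own parents were as far from them, with a median of 88.4% (2717 pseudogenes). Open reading frames ran the same way. A frame at least as long as that of the matched parent transcript was found in 90 members (61.2%). It was found in 109 of the copies with 1 to 9 reads (27.8%) and in 393 of the unread copies (4.27%). Only length was compared: the frame began at any start codon of the matched pseudogene transcript and need not end in a stop codon or be the parent's frame. The span of 79 members (53.7%), such as Gm15459 and Gm14303, was exactly the parent's coding sequence from start to stop codon, with no untranslated end annotated, against 12.9% of unread copies. Length did not order them: the medians were 537, 513 and 525.5 bases for the groups with at least 10, 1 to 9 and 0 reads.

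**Figure D2:**
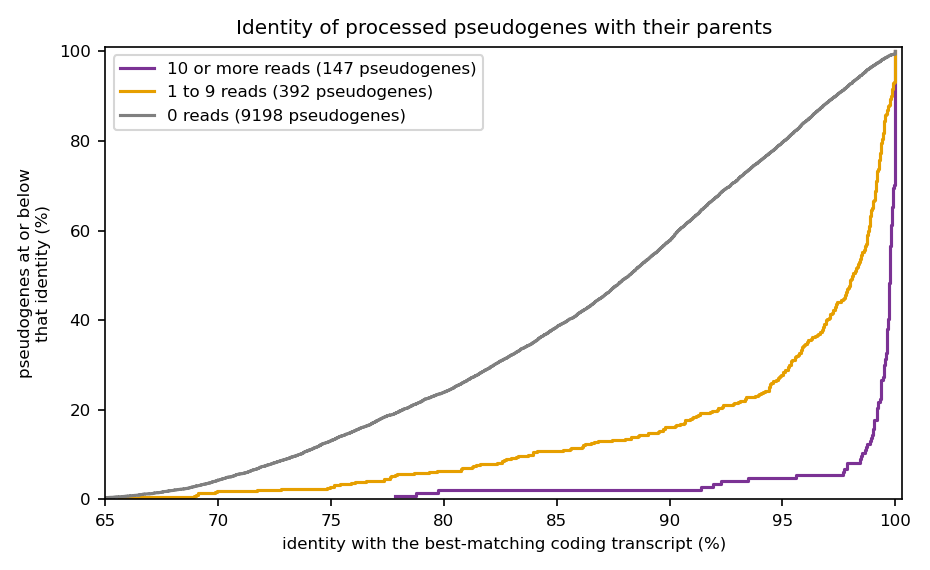
Cumulative share of processed pseudogenes (vertical axis, %) at or below each identity with their best-matching coding transcript (horizontal axis, %), for those with at least 10, 1 to 9 and 0 reads. The medians are 99.7%, 98.1% and 88.2%.

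The share of annotated copies that became members climbed over the last percent of identity. It was 34.6% of the 127 exact copies (26.9 to 43.3), 18.6% of 436 copies at 99 to below 100% (15.2 to 22.5) and 2.26% of 443 at 98 to 99% (1.23 to 4.10). Below 98% only 12 members were found. Parent level went with it as well. Among copies at 99 to below 100% identity, 27.4% became members where the parent had 100 or more reads (21.9 to 33.6), 12.6% where it had 10 to 99 (8.21 to 18.8) and 1.61% where it had fewer (0.285 to 8.59). Among exact copies these shares were 46.2% (35.5 to 57.1), 20.5% (10.8 to 35.5) and 0 of 10, for which the interval reaches 27.8%. Since membership rests on reads, and a parent's reads and its copies' reads were assigned from the same libraries, these shares describe the choice and carry no test.

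**Figure D3:**
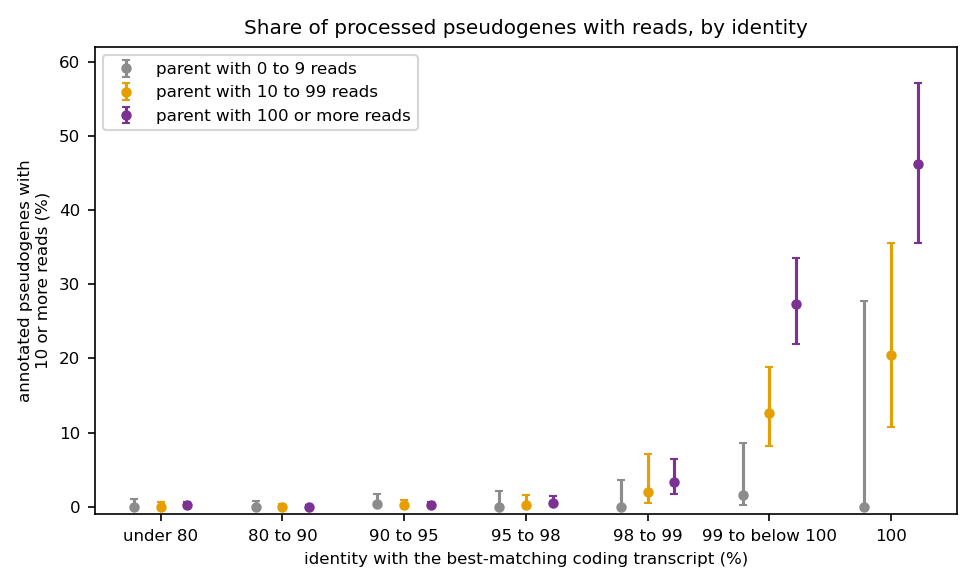
Share of annotated processed pseudogenes with 10 or more reads (vertical axis, %) in classes of identity with the parent (horizontal axis, %), for parents with 0 to 9, 10 to 99 and 100 or more reads, with 95% Wilson intervals. The highest point is 46.2%, for exact copies of parents with 100 or more reads.

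The differences that members did carry sat mostly at the third codon position, where a change often leaves the encoded amino acid as it was. In the 140 members of at least 95% identity, 349 bases differed from the parent over 88735 aligned coding bases, and 68.2% of them were at the third, 18.9% at the first and 12.9% at the second position of a codon. In copies of the same parents with 1 to 9 reads, 52.7% of 802 differences were at the third position, and in unread copies 48.0% of 7601. At 99% identity and above, the third position held 135 of 180 differences in members, 68 of 118 in copies with 1 to 9 reads (57.6%) and 103 of 158 in unread copies (65.2%). Of the 93 members with a coding difference, 44 had them at the third position only. Gm7389, a copy of the transfer RNA exporter gene Xpot, carried 65 of the 349, and without the 5 members that differ most the share was 74.6%. This measure was chosen after the first results were seen, differences of related copies are not independent, and no test was made.

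Families differed widely in how reads were divided between copies and parent. A family is taken as a parent and all annotated pseudogenes matched to it. Over the 115 families, copies held 17859 reads and parents 52911. Copies held a median of 18.6% of a family's reads in replicate 1 and 19.6% in replicate 2, and they had more reads than the parent in 18 families, in 15 of them in both libraries. Of the parents' own reads a median of 99.04% lay on spliced models. A parent here is the best-matching gene annotated as coding, which need not be the gene that was copied. Eno1b, with 177 and 345 reads, had 0.19% of them on spliced models. Gm10358, the best match of 147 annotated pseudogenes, had 1 read in each library and none on a spliced model.

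Gapdh was the extreme. Its pseudogenes had 733 and 1145 reads in replicates 1 and 2, whereas Gapdh had 8 and 7, so the copies held 98.9% (97.9 to 99.5) and 99.4% (98.8 to 99.7) of the family's reads. The whole family stood at 1866 and 1618 CPM, and the parent at 20.1 and 9.83 CPM. Counting only pseudogenes whose best match was Gapdh, 237 copies were annotated, 17 had a read and 6 were members. They were Gm12671 with 261 and 442 reads, Gm12033 with 195 and 293, Gm5559 with 165 and 226, Gm7336 with 52 and 81, Gm13394 with 47 and 69, and Gm10359 with 4 and 7. Copies of equal identity differed in reads: Gm12671 and Gm10359 have the same 1002 letters, both equal to the parent's coding sequence, and differed in reads as 703 to 11. Of 22 copies at 99% identity or above, 9 had no read, among them Gm12070, which differs from Gapdh by 1 base as Gm12033 does.

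Rpl21, Rpl17 and Rpl35a also had fewer reads than their copies. Rpl21 copies had 218 and 404 reads and the parent had 5 and 14, a share of 97.2% ± 0.78 (SD, n = 2). Rpl21-ps15 led with 121 and 236 reads, followed by Gm13370 with 64 and 120 and Gm10163 with 29 and 36, although Gm14648 matches Rpl21 as closely as Rpl21-ps15 does and had none. Rpl17 copies held 92.4% ± 0.74, with Rpl17-ps5 at 64 and 111 reads and the parent at 7 and 11. Copies of Rpl35a held 84.2% ± 1.36, and 5 of them are letter for letter the same over 333 bases. Gm10243 had 211 and 374 reads, Rpl35a-ps2 had 21 and 65, Rpl35a-ps3 had 19 and 18, Rpl35a-ps6 had 11 and 18, and Rpl35a-ps4 had 0 and 11. Rpl30 copies, led by Gm12191 with 78 and 130 reads, held 76.3% ± 2.86 (SD, n = 2).

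A second set of families divided their reads almost evenly. Rpl37rt had 194 and 396 reads against 188 and 325 for Rpl37, and Rps19-ps6 had 172 and 341 against 151 and 322 for Rps19. Gm15459 had 781 and 745 against 802 and 842 for Hspa8, so that the copies of Hspa8 held 49.4% (46.9 to 51.8) and 47.0% of the family. Gm10123 had 504 and 1079 against 558 and 1307 for Ppia, and 83 annotated copies of Ppia gave all but 1 of their reads to it. In the Rps6 family, the copies held 56.9% ± 0.57 (SD, n = 2). Most of that lay on Gm8172, with 186 and 327 reads and 6 differing bases, whereas the exact copy Rps6-ps4 had 16 and 30. The most-read copy was the closest match, or tied with it, in 82 of 104 families with at least 2 annotated copies.

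Relative to the parent, members spanned a wide range. The median member had 22.8% of its parent's reads (146 members with a parent that had reads), 20 members had more than their parent and 53 had less than 10%. At the low end, Gm1821, a copy of the polyubiquitin gene Ubb, had 8 and 9 reads against 1117 and 2733 for Ubb. Oaz1-ps, a copy of the ornithine decarboxylase antizyme gene, had 4 and 14 against 766 and 1505 for Oaz1.

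**Figure D4:**
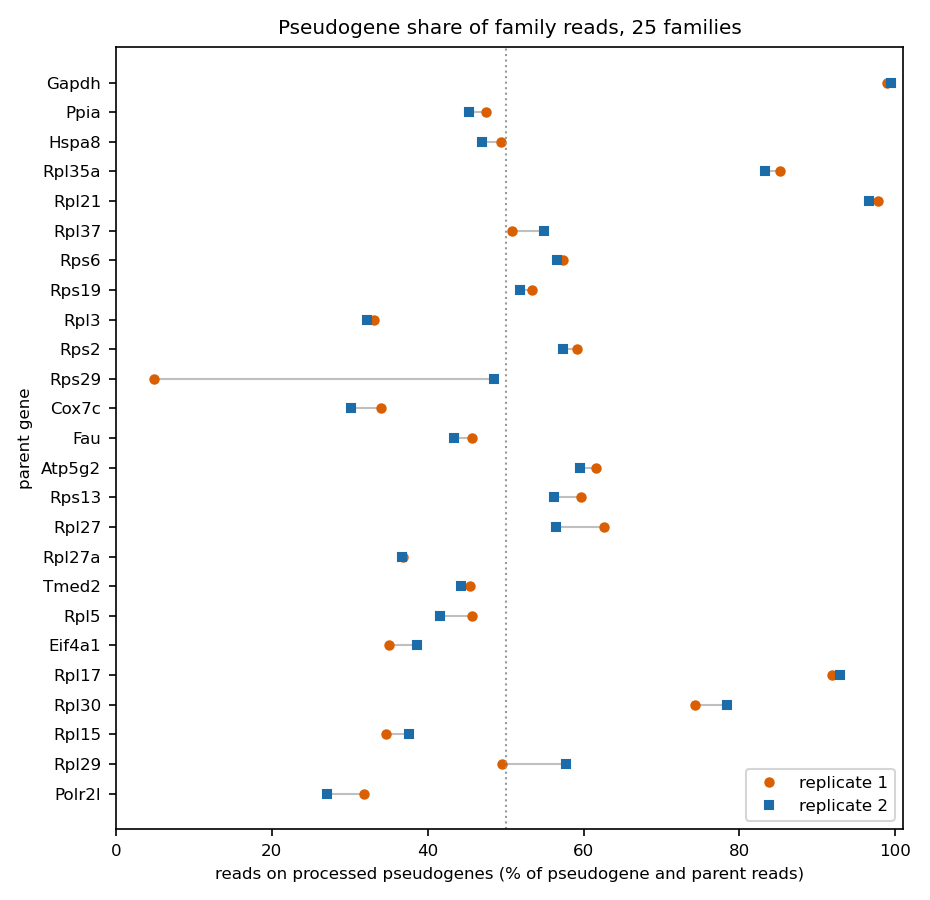
Reads on processed pseudogenes as a percentage of pseudogene and parent reads (horizontal axis) in the 25 families with the most pseudogene reads, with replicate 1 as circles, replicate 2 as squares and a dotted line at 50%. Gapdh (98.9% and 99.4%), Rpl21 and Rpl17 lie at the right edge, and Rps29 alone has its libraries far apart (4.91% and 48.5%).

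Nearly all reads were placed on the annotated transcript of the pseudogene itself. Of the members' reads, 99.7% in replicate 1 and 99.6% in replicate 2 were in the class of annotated transcripts, against 77.1% and 77.0% for all annotated genes, and 99.5% and 99.4% were on models of 1 exon, against 11.3% in both libraries for all genes. Both contrasts follow largely from the gene type chosen, since most members are annotated with 1 exon and new splice combinations need junctions. The tables record a read on an annotated transcript under that transcript's span and not under its own ends. Hence the 99.89% of reads on models with at least 80% of their bases inside the annotated span, and the 93.7% on models covering at least 80% of the pseudogene, say which transcript was assigned and not how far a read ran. Of the 1114 reads on models that covered less, 590 were those of Rpl37rt, all on its annotated transcript that has 294 bases in 1 exon. Models outside the annotation held 63 reads in 29 models of 11 members. Models were counted in each library separately, so that one found in both, such as that of Gm4118, counts in each. Of these, 8 models began upstream of the annotated start and 5 ended beyond the annotated end.

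Spliced reads were few. Of 13 members with any, 5 had at least 10, and the 13 had 102 reads between them. 2810025M15Rik, which matched the ribosomal protein gene Rpl37a at 78.8% identity, had 1 read on the matched transcript, of 1 exon, and 5 and 21 on another annotated transcript of 3 exons. Bases 894 to 1153 of that transcript's 1194, all in its last exon, matched Rpl37a at 78.1%. AC121957.1, a 77.8% match to Rpl29, had 4 and 14 spliced reads, all on models outside the annotation. No model of its 25 reads covered more than 29.5% of the annotated pseudogene, and several covered none of it. AC121957.1 and 2810025M15Rik are counted above among the ribosomal protein copies by their matches alone. Ppp1ccb, a near copy of the protein phosphatase gene Ppp1cc at 99.8% identity, had 6 and 11 reads on a transcript of 2 exons and 17 and 36 on a transcript of 1 exon. Gm1821 had 6 and 7 spliced reads, and Gm4118, a 91.9% match to the proteasome gene Psma2, had 2 and 8 on a model of 2 exons that begins 1912 bases before the annotated start. Rps4l, the remaining member below 80% identity, had 12 and 35 reads, all on its single exon.

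The 19 members annotated as transcribed had a median identity of 99.7%, against 99.8% for the 129 others, and 5 of the 18 with a parent lay below 99%. Of the 19, 12 had 30 or more reads. Rpl37rt led, followed by Gm15500, a copy of Rpl5 with 111 and 130 reads, and Gm10175, a copy of the ATP synthase subunit gene Atp5g2 with 51 and 103. Others were Gpx4-ps2, Ppp1ccb, Gm10275, Gm10177, Rps4l, Gm5641, Rps26-ps1 and Rps2-ps10, with 77 to 32 reads.

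A minority lay inside other genes. On the same strand, 19 members overlapped another annotated gene, and 3 of them had at least 50% of their bases in its exons. Rps19-ps6 had 86.8% of its bases in exons of Tecpr2, which had 1 read of its own. Gm10774, a copy of the RNA polymerase subunit gene Polr2l with 76 and 117 reads, lay wholly in exons of Usp50, which had 17, and Gm15801, matched to the phosphatase gene Ptp4a1 with 30 and 58 reads, in exons of Aldh18a1, which had 65. In 15 of the 19 the pseudogene had more reads than the gene around it. Overlap with a gene on the opposite strand was found for 42 members, such as Gm8172 with Aff2 and Gm12338 with Pitpna.

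Between the libraries few members were called in a test against counting error. For the 9271 annotated genes with at least 10 reads, the division of reads between the libraries was set against their totals by an exact binomial test (two-sided, Benjamini-Hochberg adjusted over all of these genes), and ratios are replicate 2 over replicate 1. This test is conditional on the summed reads that chose the members. At an adjusted p under 0.05, 3 of the 148 members (2.03%) were called, against 2.15% of all genes tested (0.798% higher in replicate 2 and 1.35% higher in replicate 1), so their number was near the background. The same test called 2.19% of genes with TMM scaling and as many with DESeq2 size factors, 2.31% with annotated transcripts only and 0.927% without a filter on low counts. Without adjustment, 14 members and 1070 of all genes tested had p under 0.05 (exact binomial test). A member with few reads may differ without being called. The median log2 ratio was -0.06 over the members and 0.03 over all genes. In bulk tissue, fewer cells of a type and less RNA per cell cannot be told apart, and the liver markers above also differed between the libraries; their part in these ratios was not tested.

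Gm14303 was higher in replicate 2, with 397 reads there and 10 in replicate 1. Its log2 ratio was 4.40 (exact interval 3.57 to 5.54; adjusted p = 5.1e-58, exact binomial test). Its parent Rps29, a gene of the small ribosomal subunit whose coding sequence it matches without a difference, had 422 reads there and 213 in replicate 1, for a log2 ratio of 0.14 (-0.10 to 0.39; adjusted p = 0.752, exact binomial test). The copies of Rps29, nearly all through Gm14303, held 48.5% of the family's reads in replicate 2 (45.1 to 52.0), whereas their share in the other library was 4.91% (2.76 to 8.58). The SD of this share, 30.8 percentage points, was the largest of the 115 families, whose median SD was 1.56.

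Gm15459 and Gm10123 moved with their parents. Gm15459 had a log2 ratio of -0.91 (-1.06 to -0.76; adjusted p = 3.9e-31, exact binomial test) and Hspa8 one of -0.77 (-0.91 to -0.63; adjusted p = 8.6e-24, exact binomial test). For Gm10123 the log2 ratio was 0.26 (0.10 to 0.41; adjusted p = 0.0453, exact binomial test) and for Ppia 0.39 (0.24 to 0.53; adjusted p = 1.7e-05, exact binomial test). The call of Gm10123 was lost with TMM scaling (adjusted p = 0.155, exact binomial test), with DESeq2 size factors and without a filter on low counts. Gm15500, at -0.62, missed the threshold in the test described (adjusted p = 0.0552, exact binomial test) and passed it with TMM scaling (adjusted p = 0.0292, exact binomial test).

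**Figure D5:**
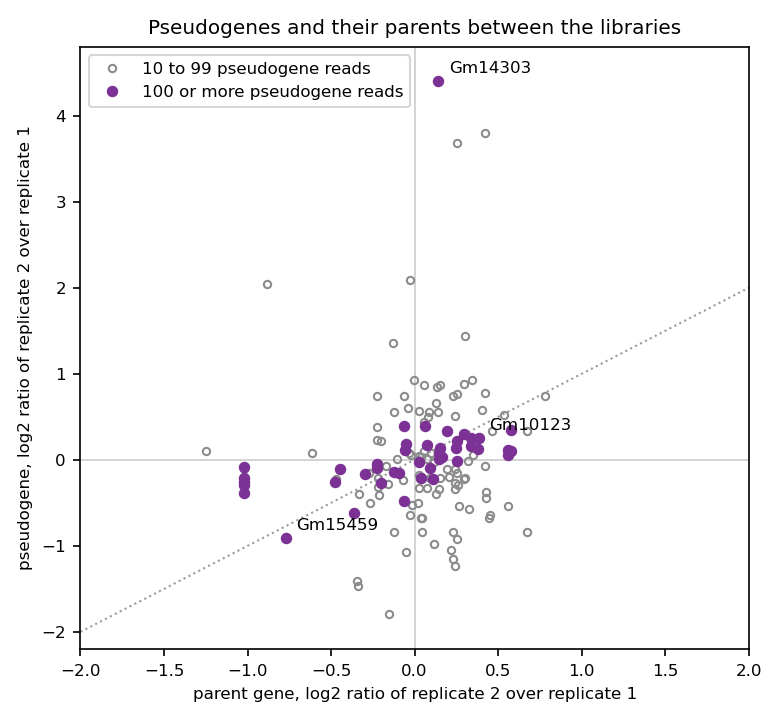
Log2 ratio of replicate 2 over replicate 1 for 145 pseudogenes (vertical axis) and their parents (horizontal axis), with the 43 of 100 or more reads filled and a dotted line of equal ratios. Filled points lie between -0.62 and 0.40 on the vertical axis except Gm15459, low with its parent, and Gm14303 at 4.40 above a parent at 0.14. The filled points at -1.02 on the horizontal axis are the 5 most-read copies of Gapdh, which share 1 parent with few reads.

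Among the 43 members with 100 or more reads, the log2 ratios of copy and parent differed by a median of 0.19, by 0.5 or less in 37 and by more than 1 in Gm14303 only. Without Gm14303 and Gm15459 the members' ratios ran from -0.62 to 0.40. Over all 145 pairs, which include copies with as few as 10 reads, the median difference was 0.41, with 84 at 0.5 or less and 22 above 1. Of the 113 parents tested 8 were called (7.08%, against 2.15% of all genes tested), 4 in each direction. The parents had a median of 344 reads over both libraries, against 44 for all genes tested, and the part of this depth in their calls was not tested. Parents and copies are assigned from the same reads of the same libraries, so that their ratios are not independent.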

How the data were processed

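Long-read RNA sequencing was done on total RNA of adrenal gland in 2 libraries. Each deposited table holds raw counts of 1 library, per the file headers, as whole reads on each transcript model with at least 1 read. Per the notes deposited with the files, the authors used mouse build mm10 and GENCODE M21, extended per library by models of TALON. The aligner and program versions are not given in the sources used here. Besides counts, the deposited tables also give exon numbers and lengths of models, and the deposited annotations their positions.

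A gene's reads were summed over all its models, and members were genes of both processed pseudogene types with at least 10. CPM, computed from the deposited counts, used the 397176 and 712032 reads on annotated genes. Gene types were the same in the GENCODE M21 reference. Every pseudogene transcript was matched on the plus strand to coding transcripts with BLASTN 2.17.0 (E-value at most 1e-10), the match spanning at least 50% of it. Equal matches went to the parent with more reads. The libraries were set against each other with SciPy 1.17.1 (exact binomial test, two-sided) and Benjamini-Hochberg adjustment in genes with at least 10 reads. In log2 ratios 0.5 was added to counts. The test was also run on simulated Poisson counts with no variance beyond counting, so that run cannot show how it behaves on real libraries. Alternatives used edgeR 4.0.16 for TMM scaling and DESeq2 1.42.0 for size factors. The p-values measure only the difference between these libraries, which may be technical.

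Genes were named by rule: the 15 most-read members, those named after a parent with -ps, transcribed ones with at least 30 reads, those called between libraries, those with at least 10 spliced reads, neighbours of the read minimum, and their parents and surrounding genes. Gm10698, Rpl30 copies, unread Gapdh and Rpl21 copies, Rpl37rt's shorter transcript, members at the low end and other examples were named after their values were seen. The members and lists were chosen with earlier results of these data known. Genome sequence, read sequences and the alleles of the parental strains were not analysed here. The result of 1 transcribed member is not reported here. A pseudogene and a near-identical parent can share reads, so the reads of members with few differing bases are uncertain.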

Additional observations from a re-analysis of the deposited data

How the results depend on the processing

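No paired analysis was possible because the series has 1 group. The 148 members numbered 144 with annotated transcripts only, 212 with a minimum of 5 reads and 106 with 20. With 1 library alone they numbered 96 to 121. Their share of reads, 1.59%, was 1.501% of all reads on mouse models and 2.05% among annotated transcripts, and 1.57% to 1.60% in single libraries. Between the libraries, 3 members were called with TMM scaling, with DESeq2 size factors, with annotated transcripts only and, an alternative added after seeing the data, with totals that leave out the members; 2 were called without a filter on low counts, where Gm10123 had an adjusted p of 0.0789 in the exact binomial test. Under both scalings Gm15500 took the place of Gm10123, while Gm14303 and Gm15459 were called under every alternative run. Reads on models inside the annotated span were 99.89%, with 99.97% when 50% of bases had to lie inside and 99.86% when 95% had to. Reads on models covering the pseudogene were 93.7%, and 96.4% at 50% and 91.8% at 95% of its bases. Same-strand overlaps fell to 3 of 19 when at least 50% of bases had to lie in exons. The median of member over parent reads, 22.8%, was 23.1% with parents taken from names alone, 22.01% to 22.97% in single libraries, and 42.2% in members with at least 30 reads, an alternative added after seeing the data. Members near 10 reads are not resolved at this depth: 42 had fewer than 20.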

Other observations

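Of 94 processed pseudogenes annotated on the Y chromosome, 1 had reads in these female mice. Gapdh-ps15, a copy of Gapdh with 5 differing bases over 1002, was listed with 2 reads in replicate 1 and 3 in replicate 2. It is below the minimum of 10 reads, and is counted above among the copies with 1 to 9 reads, among the annotated copies at 99 to below 100% identity and in the Gapdh family.

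Members with the same letters were not all read alike. Besides the copies of Gapdh and Rpl35a given above, Gm11518 and Rpl27-ps3 share all 411 bases, equal to the coding sequence of Rpl27, the gene of a large ribosomal subunit protein. These 2 lay closer together: Gm11518 had 54 and 124 reads, and Rpl27-ps3 had 46 and 89. Of the 127 annotated copies without a difference over their match to any parent, 56 had no read. These need not be whole copies: Gm28900, for example, matched Rpl21 over 98.1% of only 156 bases and had none. How the authors' pipeline placed reads that match several copies equally well was not tested.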
